A study of Mus musculus with 6 samples.

Results

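Conventional dendritic cells were examined in 6 mouse rhabdoid tumors, each profiled by single-cell RNA sequencing from a different mouse. The cells were chosen by measured values. A cell was a member when the class II genes Cd74, H2-Aa, H2-Ab1 and H2-Eb1 together reached at least 200 of every 10000 UMIs (unique molecular identifiers, the counted RNA molecules) and when at least 1 UMI of Flt3, Xcr1, Clec9a, Cd209a or Naaa was found. The complement genes C1qa, C1qb and C1qc, which mark macrophages, had to stay under 20 of every 10000 UMIs. Cells with a UMI of the B cell gene Cd79a, or with at least 2 of the maturation genes Ccr7, Fscn1 and Ccl22, were left out. This gave 271 of 22163 kept cells, 1.22% of the series, and they are called cDC-gated cells here.

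All mice carried Smarcb1 fl/fl alleles with a tamoxifen-inducible Cre (creERT2), and their dams had received 50 mg/kg of tamoxifen once, at embryonic day 6.5. Smarcb1 encodes a core member of the SWI/SNF chromatin remodelers, and its loss drives rhabdoid tumors. The 3 MYC spinal tumors came from Rosa26-cre mice of 19, 26 and 17 weeks and are called spinal 1 (Rosini1172), spinal 2 (Rosini1177) and spinal 3 (Rosini1232). The 3 extracranial tumors (eRT, also of the MYC subgroup) were eRT 1 (Rosini1148, gland, 17 weeks) from a Rosa26-cre mouse, and eRT 2 (Soxertini568, jaw, 29 weeks) and eRT 3 (Soxertini593, shoulder, 22 weeks) from Sox2-cre mice. Rosa26 is active in nearly all cells and Sox2 in early embryonic and neural progenitor cells. Sox2-cre tumors were found in the eRT group and in no spinal tumor, so subtype, tumor site and Cre line could not be told apart among most tumors. The loaded cells had been sorted as alive with the dye 7-AAD, and no gate on immune cells is stated.

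Conventional dendritic cells take up antigen, cut it and present the peptides to T cells. They grow under the receptor Flt3 and fall into a cDC1 lineage (Xcr1, Clec9a, Batf3, Irf8), which presents taken-up antigen on class I molecules, and a cDC2 lineage (Cd209a, Clec10a, Mgl2), which mainly serves CD4 T cells. On maturation they switch on Ccr7, the receptor that leads them to lymph nodes, with co-stimulatory and T cell attracting genes. On class II molecules, peptides are loaded by H2-DM, which H2-O restrains, and the class II promoters are known for a shared array of boxes bound by a complex that recruits the coactivator Ciita.

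The promoter stretches of 6 class II genes are shown because the class II peptide loading genes separated the cDC-gated cells from macrophages in different ways, as described further on. They come from RefSeq on GRCm38.p6 and run from 135 to 26 bases before the RefSeq start. The gene coordinates printed further on come from another annotation, whose starts can differ. In it the stretch of H2-DMb2 lies inside the gene, most of that of H2-DMb1 does, and that of H2-Oa reaches past the gene start. In capitals are the letters AACNNATG and ATTGG, letters of the X and Y boxes, searched on both strands.
H2-Eb1, chr17:34305732-34305841, plus strand: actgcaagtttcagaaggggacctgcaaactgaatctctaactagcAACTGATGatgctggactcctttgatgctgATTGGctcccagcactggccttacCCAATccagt
H2-Ob, chr17:34238770-34238879, plus strand: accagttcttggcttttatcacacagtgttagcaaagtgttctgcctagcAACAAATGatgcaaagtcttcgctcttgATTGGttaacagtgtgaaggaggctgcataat
H2-DMb1, chr17:34153056-34153165, plus strand: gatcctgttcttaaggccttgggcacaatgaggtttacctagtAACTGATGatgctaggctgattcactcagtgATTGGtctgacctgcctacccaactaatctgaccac
H2-DMb2, chr17:34145114-34145223, plus strand: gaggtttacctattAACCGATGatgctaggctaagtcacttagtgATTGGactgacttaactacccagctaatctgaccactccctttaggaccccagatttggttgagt
H2-Oa, chr17:34092244-34092353, plus strand: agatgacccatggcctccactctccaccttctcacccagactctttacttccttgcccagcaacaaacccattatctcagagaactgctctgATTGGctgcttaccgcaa
H2-Aa, chr17:34287849-34287958, minus strand: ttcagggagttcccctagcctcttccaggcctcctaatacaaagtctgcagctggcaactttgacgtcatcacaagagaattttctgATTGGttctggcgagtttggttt
Both motifs were found on the strand of the gene in H2-Eb1, H2-Ob, H2-DMb1 and H2-DMb2, always with AACNNATG first and 20 to 23 bases between them, and H2-Eb1 held a further ATTGG on the other strand, printed as CCAAT, whereas the stretches of H2-Oa and H2-Aa held ATTGG alone. Among all 32851 promoters, 20.1% held ATTGG in this stretch, 3.41% held AACNNATG, and 0.119% held both in that order on the strand of the gene. H2-Oa, H2-Ob and H2-DMb2 were higher in cDC-gated cells than in macrophages and H2-DMb1 and H2-DMa were not called. The stretches of H2-DMa held neither motif, and H2-Ab1 and Ciita are only named here.

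The tumors gave 33 cDC-gated cells in spinal 1, 32 in spinal 2, 89 in spinal 3, 5 in eRT 1, 74 in eRT 2 and 38 in eRT 3. These were 2.25% (95% exact binomial interval 1.55 to 3.14), 0.557% (0.381 to 0.785) and 1.32% (1.06 to 1.62) of the kept cells in spinal 1, spinal 2 and spinal 3. In the eRT they were 0.233% (0.0758 to 0.544) in eRT 1, 3.62% (2.86 to 4.53) in eRT 2 and 0.945% (0.67 to 1.3) in eRT 3. The highest and the lowest share were both eRT, so the groups overlapped. The mean share was 1.37% ± 0.846 (SD, n = 3) in MYC spinal tumors and 1.6% ± 1.79 (SD, n = 3) in eRT, a difference of 0.226 percentage points by a two-sided exact permutation test over tumors (p = 0.9, where 3 against 3 cannot go below 0.1). The direction turned to -0.785 points without eRT 2 and to -0.183 without spinal 2. Counted among the 5509 class II high cells instead, the members made up 30.6%, 15.8% and 5.07% in the spinal tumors and 1.02%, 21.8% and 1.45% in the eRT. This denominator gave a difference between eRT and MYC spinal tumors of -9.03 points, with an exact permutation p of 0.5.

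**Figure D1:**
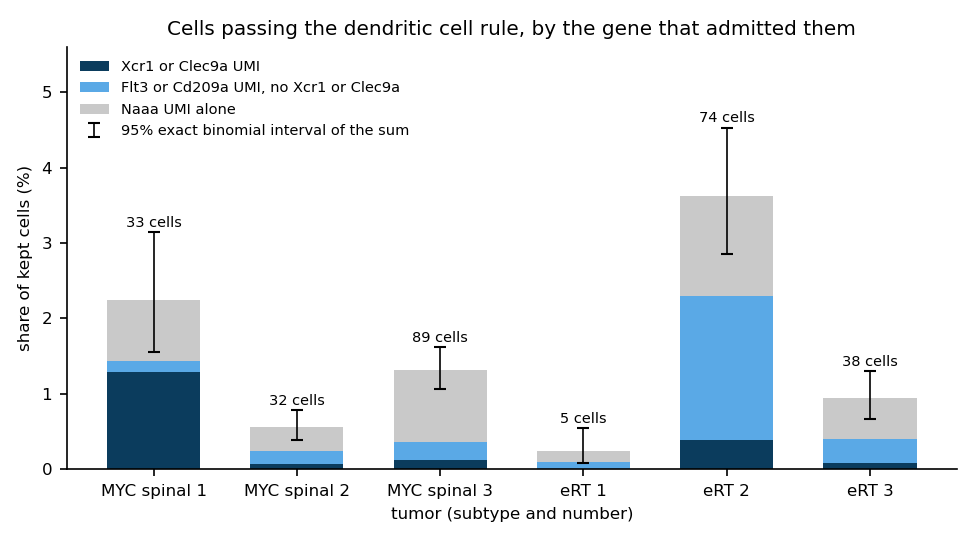
Share of kept cells (percent, y axis) that were cDC-gated in each of the 6 tumors (x axis), stacked by the marker that admitted the cell. The lines are 95% exact binomial intervals of the whole share, which cover counting error only, and the shares run from 0.233% in eRT 1 to 3.62% in eRT 2.

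Depth differed between tumors and touches these shares. The tables held 3841706 to 26184224 UMIs per tumor in the kept cells, with a median per cell of 916 in spinal 2 and of 1367 to 5211 in the other tumors. The cDC-gated cells had median UMIs of 5849 in spinal 1, 1114.5 in spinal 2, 2200 in spinal 3, 1951 in eRT 1, 3097.5 in eRT 2 and 1903.5 in eRT 3. With every cell thinned to 1000 UMIs the shares were 1.44%, 0.502% and 0.727% in the spinal tumors and 0.0933%, 2.96% and 0.551% in the eRT, which left eRT 2 highest and eRT 1 lowest. Cells of different tumors carried running numbers and not barcodes, so shared barcodes could not be counted. Smarcb1, the targeted gene, was found in 8 of 33 members in spinal 1, 1 of 32 in spinal 2, 17 of 89 in spinal 3, 1 of 5 in eRT 1, 18 of 74 in eRT 2 and 7 of 38 in eRT 3, which in spinal 2 and eRT 1 is a single cell.

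The name of the population was checked against its markers. The admitting genes lie on GRCm38 at chr5:147330741-147400489 (Flt3), chr9:123852315-123862029 (Xcr1), chr6:129408862-129424763 (Clec9a), chr8:3743397-3748984 (Cd209a) and chr5:92257659-92278170 (Naaa). Of the 271 members, 32.8% had a UMI of Flt3, 13.3% of Xcr1, 7.01% of Clec9a, 4.43% of Cd209a and 78.2% of Naaa, a lysosomal acid amidase gene. In C1q-high macrophages, 20.5% of cells had a UMI of Naaa and 0.45% of Flt3, so Naaa was not specific to dendritic cells in these tumors. In neutrophils the shares were 2.58% and 0.43%, at median UMIs of 1023, 2074 and 1037 in spinal 2, spinal 3 and eRT 2, which held nearly all of them, and the macrophages had medians of 856.5 to 4077 over the tumors. Naaa had brought in 147 members (54.2%) alone, with no UMI of the other markers. Another 82 (30.3%) had Flt3 or Cd209a without Xcr1 or Clec9a, and 42 (15.5%) had Xcr1 or Clec9a. Another 878 cells met every other limit without a UMI of these 5 genes. No member held both Xcr1 or Clec9a and Cd209a, and the 12 Cd209a cells came from eRT 2 (8 cells), eRT 3 (3) and spinal 2 (1). The transcription factor gene Zbtb46, a marker of the lineage, was found in 3.32% of members. The name therefore rested on few markers in most members, and the population is called by its gate.

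The 42 Xcr1 or Clec9a cells carried the cDC1 genes, and the other classes did so in smaller shares. These classes share the rule with the members and were set after values had been seen, so their levels are a description with no test. Irf8, a transcription factor needed by cDC1, was found in 97.6% of the Xcr1 or Clec9a cells, 34.1% of the Flt3 or Cd209a cells and 34.0% of the cells with Naaa alone. Batf3, its partner, was found in 59.5%, 17.1% and 11.6%. The inhibitory receptor gene Btla was found in 52.4%, 9.76% and 7.48%. The small GTPase gene Rab7b was found in 66.7%, 7.32% and 11.6%, and Wdfy4, required for presentation of cell-associated antigen on class I, in 50%, 13.4% and 12.9%. Each of these 5 genes was most frequent in the Xcr1 or Clec9a cells, of which 19 came from spinal 1, the tumor whose members had the highest median UMI count.

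Levels of single genes are pooled over tumors here, and the classes came unevenly from the tumors. Spinal 1 gave 19 of the 42 Xcr1 or Clec9a cells and eRT 2 gave 39 of the 82 Flt3 or Cd209a cells. Spinal 3 gave 65 of the 147 cells with Naaa alone. Cst3 encodes the protease inhibitor cystatin C and is high in dendritic cells. It stood at 333 UMIs per 10000 in the Xcr1 or Clec9a cells. The Flt3 or Cd209a cells had 124 and the cells with Naaa alone 99.1. The lysozyme gene Lyz2, a gene of macrophages and granulocytes, ran the other way with 2.42, 12.6 and 56.9 per 10000. Apoe, the lipid carrier of macrophages, was at 1.67, 2.64 and 14.0 per 10000. In these pooled values both genes were thus highest in the cells admitted by Naaa alone. The neutrophil list did not follow them. In spinal 2, spinal 3 and eRT 2 it summed to 51.1, 10.4 and 4.25 per 10000 in the cells with Naaa alone. The Flt3 or Cd209a cells of these tumors had 302, 168 and 13.6. The Xcr1 or Clec9a cells had 445 (from 4 cells), 5.43 and 4.84. Clec10a, a lectin gene of cDC2, was at 2.98 per 10000 in the Flt3 or Cd209a cells against 0.176 in the Xcr1 or Clec9a cells. The list of genes shared by conventional dendritic cells, which holds Cst3, was also summed within tumors. From spinal 1 to eRT 3, the Flt3 or Cd209a cells had 195, 130, 140, 163, 175 and 173 per 10000. The cells with Naaa alone had 117, 328, 86.7, 254, 128 and 219, so they were above in spinal 2, eRT 1 and eRT 3. The part of the tumors in the pooled values was not tested.

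Without the genes of the rule, the cDC1 list summed to 74.1, 41.8, 54.7, 50.6 and 64.4 per 10000 in the Xcr1 or Clec9a cells of spinal 1, spinal 2, spinal 3, eRT 2 and eRT 3, and eRT 1 had no such cell. The Flt3 or Cd209a cells had 21.1, 13, 8.67, 24.4 and 13.6 in the same tumors, and C1q-high macrophages had 10.4, 16.2, 6.74, 15.2 and 10.9. The cells with Naaa alone had 23.7, 33.5, 12, 16.3 and 12.9. In all 5 tumors the Xcr1 or Clec9a cells were above the other classes and the macrophages. In eRT 1 the 2 Flt3 or Cd209a cells had 60.8. RNA of other cell types was present to different degrees. The monocyte list summed to 49.9, 34, 25.6, 62.8, 32.7 and 27.8 per 10000 in the members of spinal 1, spinal 2, spinal 3, eRT 1, eRT 2 and eRT 3 and to 65.5, 36.5, 26.6, 25.3, 42.5 and 26.8 in C1q-high macrophages, so the 2 kinds overlapped in monocyte RNA. Over the whole population the macrophage list summed to 24.8, 10, 25.1, 45.8, 14 and 40.5 per 10000 in spinal 1, spinal 2, spinal 3, eRT 1, eRT 2 and eRT 3, against 714, 214, 84.6, 189, 447 and 475 in C1q-high macrophages. The neutrophil list summed to 187 per 10000 in spinal 2 and 36.1 in spinal 3 and to between 0 and 9.2 in the other tumors, and S100a8, which encodes a neutrophil calcium-binding protein, was found in 24 of 32 members of spinal 2, 20 of 89 of spinal 3 and 34 of 74 of eRT 2. The macrophages of spinal 2 also held 48.7 per 10000 of that list. The T and NK cell list lay between 0.264 and 6.91 per 10000, with Cd3e in 6 members of spinal 1, 5 of spinal 3 and 9 of eRT 2. B cell genes reached at most 0.264, tumor and stroma genes 1.4 and red cell genes 1.55 per 10000. Their part in the results was not tested.

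**Figure D2:**
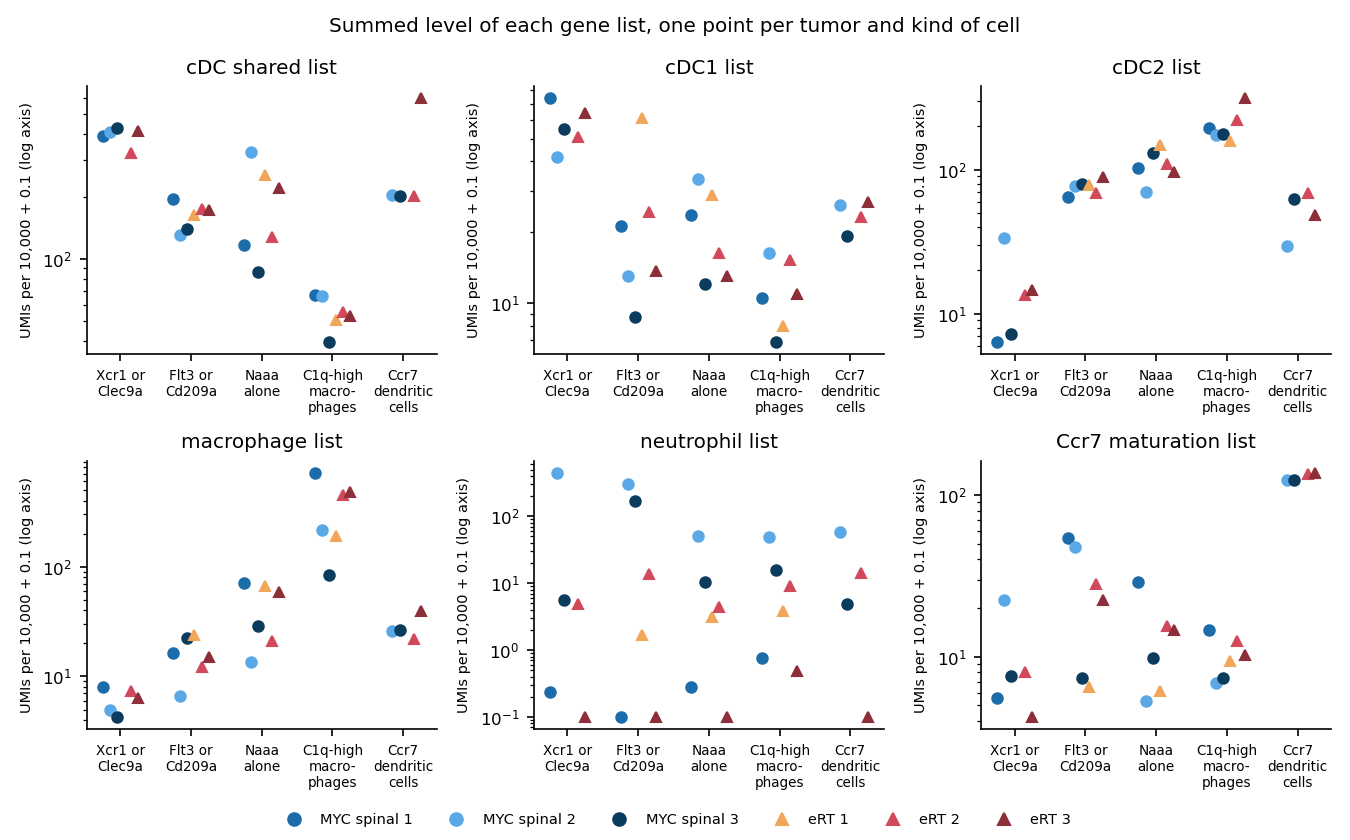
Summed UMIs per 10000 (log axis, after adding 0.1) of 6 marker lists in the 3 classes of cDC-gated cells, in C1q-high macrophages and in Ccr7 dendritic cells, with 1 point for each tumor that has at least 2 such cells. The cDC1 list is highest in the Xcr1 or Clec9a cells in the 5 tumors that have them, and the macrophage list is highest in C1q-high macrophages.

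The cells at the edges of the rule were as follows. The members nearest to the class II threshold had 203, 203 and 223 per 10000 and the nearest cells outside had 190, 192 and 198, while the median was 673 among members and 2.83 among the cells that met every other part of the rule. For C1q, 206 of the 271 members had no UMI, the highest members had 18.6, 18.5 and 18.3 per 10000, and the nearest cells outside had 20, 21.5 and 23.

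The cDC-gated cells were then set against 4218 C1q-high macrophages, class II high cells with at least 20 C1q UMIs per 10000. The 878 cells that met every limit but the marker UMI were not tested against the members. The 16 genes of the rule were left out of the test, though genes expressed together with them were not independent of the gates. The tumors spinal 1, spinal 3, eRT 2 and eRT 3 had at least 10 cells of both kinds and were paired, since both kinds came from 1 tumor. In the edgeR quasi-likelihood fit with p-values adjusted after Benjamini-Hochberg, 83 of 3480 genes were higher in cDC-gated cells (2.39%) and 138 were lower (3.97%), 6.35% in all. The number depended on the tumors, with 30 called without eRT 2 and 93 without spinal 1, and fell to 71 without pairing. Among the lists, 7 of 16 genes shared by conventional dendritic cells and 5 of 11 cDC1 genes were higher in the cDC-gated cells, and 18 of 21 macrophage genes were lower.

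Of the list of genes shared by conventional dendritic cells, 7 of 16 tested were higher (median log2 fold change 1.54, against 0.01 over all genes). Cst3 reached 253, 107, 140 and 174 UMIs per 10000 in the cDC-gated cells of spinal 1, spinal 3, eRT 2 and eRT 3, and 47.5, 23.2, 29.5 and 37.7 in the macrophages. The kinds did not overlap for Cst3 (chr2:148871722-148875692, minus strand), with a log2 fold change of 2.15 ± 0.20 (SE, adjusted p = 0.00148). Klrd1 (CD94), a lectin-like receptor best known from NK cells, stood at 0.87, 0.859, 3.18 and 4.98 per 10000 against 0, 0.102, 0.135 and 0.039 (log2 fold change 5.0 ± 0.65, SE). Cd24a, a GPI-linked surface protein, stood at 2.75, 1.54, 2.92 and 1.05 against 0, 0.105, 0.135 and 0.00325 (4.90 ± 0.59, SE). Both were higher in 4 of 4 tumors. Beside these genes, the T and NK cell list summed to 6.91, 2.49, 3.84 and 0.655 per 10000 in the members. In the macrophages it summed to 0.244, 0.734, 1.15 and 0.385. The part of T and NK cell RNA in the Klrd1 values was not tested.

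Of the cDC1 list, 5 of 11 tested genes were higher (Gcsam, Ifi205, Irf8, Itgae and Wdfy4), with a median of 1.43. Wdfy4 was at 1.47, 0.497, 0.813 and 0.786 per 10000 in cDC-gated cells and at 0.0812, 0.119, 0.27 and 0.145 in macrophages (log2 fold change 2.25 ± 0.39, SE, adjusted p = 0.0118). Gcsam, a germinal center signaling gene, had no UMI in the macrophages. It was at least 129-fold higher in cDC-gated cells against a floor of 3 counts over the group. This bound, and those of this kind below, set a mean over tumors against pooled UMIs and do not hold within each tumor. Itgae, the alphaE chain of an integrin that binds E-cadherin, was at 1.19, 0.0904, 0.259 and 0.524 per 10000 against 0, 0.00679, 0 and 0.0065. Irf8 had pooled levels of 9.21 per 10000 in members and 3.03 in macrophages, although it was found in 43.9% of members and 49.7% of macrophages. Batf3 (log2 fold change 1.54, adjusted p = 0.102) and the adhesion gene Cadm1 (-1.19, adjusted p = 0.22) did not pass the test.

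Of the cDC2 list, 5 of 20 genes were higher (Cd7, Clec10a, Il1r2, Ltb and Tnip3) and 3 were lower (Lyz2, Tmem176a and Tmem176b), with a median of 0.48. The lower ones include Lyz2, which is shared with macrophages. The whole list summed to 34.9, 108, 72 and 89.2 per 10000 in the cDC-gated cells of spinal 1, spinal 3, eRT 2 and eRT 3. The macrophages of the same tumors had 196, 176, 222 and 314, so the summed level was lower in the members of each. Cd7, a surface receptor best known from T and NK cells, was at 0.458, 0.362, 0.924 and 1.57 per 10000 against 0, 0.0238, 0 and 0.013 (log2 fold change 5.50 ± 0.73, SE).

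The 8 genes named for the largest rise were Plet1, Cd7, Itgae, Klrd1, Cd24a, Ifitm1, Itgb7 and Gpr171. Plet1 (chr9:50494525-50505482, plus strand), which encodes a GPI-anchored surface protein, had 1.69, 0.136, 1.44 and 3.01 UMIs per 10000 in the cDC-gated cells of spinal 1, spinal 3, eRT 2 and eRT 3. It had 0, 0, 0 and 0.00488 in the macrophages, from 3 UMIs. The ratio of the UMI sums was 405 (95% counting interval 135 to 1996), and the fitted log2 fold change was 8.75 ± 0.51 (SE, adjusted p = 8.35e-05). Such ratios, here and below, pool UMIs over the tumors without pairing, so the unequal share of each tumor enters them. Itgb7, the partner chain of Itgae, was at 3.57, 0.542, 1.33 and 3.27 against 0.162, 0.126, 0.203 and 0.026. Ifitm1, an interferon-induced membrane protein gene, was at 3.8, 6.64, 40.6 and 59.1 against 0.162, 1.21, 2.97 and 0.226, and it was highest in the 2 eRT. Gpr171, a G protein-coupled receptor gene, was at 4.44, 0.768, 5.14 and 5.37 against 0.731, 0.187, 0.473 and 0.0276.

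Of the macrophage list, 18 of 21 tested genes were lower in cDC-gated cells, with a median log2 fold change of -3.29. The C1q gate divided the kinds, so that this direction was partly built into the choice of cells. Apoe stood at 11.4, 4.2, 2.33 and 24.2 per 10000 in cDC-gated cells and at 537, 34.3, 312 and 364 in macrophages, and fell by 4.98 on the log2 scale (SE 0.67). Pf4, a chemokine gene, was at 0, 0.0904, 0.185 and 0 against 0.325, 0.683, 14.2 and 18.6. Fcrls, an Fc receptor-like gene, had no UMI in cDC-gated cells and was at least 29-fold lower against a floor of 3 counts over the group, and the median of the list was the same with Fcrls at this bound. Among the named genes that fell were also Gas6, a ligand of the receptors Axl and Mertk (no UMI, at least 14.9-fold lower), and the immune receptor gene Lilra5 (no UMI, at least 15.5-fold lower). Vcam1, an adhesion molecule gene, had 1 UMI in cDC-gated cells and a ratio of sums of 47 in favor of macrophages (8.41 to 1861).

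Monocyte attracting chemokines were among the genes that fell. Ccl12 was at 0, 0.814, 0.037 and 0.131 per 10000 in cDC-gated cells against 24.7, 5.29, 23.7 and 13.3, and Ccl8 was at 0, 0, 0.111 and 0.131 against 2.19, 0.0679, 8.85 and 0.299. Of 21 cytokine and chemokine genes tested, 5 fell (Ccl12, Ccl2, Ccl7, Ccl8 and Cxcl16) and 1 rose (Ccl17), with a median of -1.40. Of 8 chemokine receptors, C5ar1 and Cx3cr1 were lower. Of 14 pattern recognition genes, Cd14 and Unc93b1 were lower, and of 12 growth factor receptor genes 1 was lower, Csf1r, the receptor for the macrophage growth factor.

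For class II peptide loading, 3 of 13 tested genes were higher and 3 were lower (median 0.17). The genes that rose were H2-Oa and H2-Ob, the chains of the H2-DM inhibitor H2-O, and H2-DMb2, a beta chain of H2-DM. H2-Oa was at 2.61, 0.814, 2.03 and 1.83 per 10000 in cDC-gated cells and at 0.162, 0.0985, 0.203 and 0.192 in macrophages (log2 fold change 3.18 ± 0.27, SE, adjusted p = 0.00104). H2-Ob was at 0.824, 0.497, 0.591 and 0.524 against 0.162, 0.017, 0.0676 and 0.156 (2.92 ± 0.65, SE). H2-DMb2 was at 4.99, 2.31, 4.81 and 6.03 against 0.325, 0.319, 1.15 and 0.459 (2.99 ± 0.29, SE). The kinds did not overlap for these 3 genes.

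H2-DMb1, the near-identical neighbor of H2-DMb2, was at 14.4, 7.55, 8.87 and 15.7 per 10000 against 9.26, 8.29, 8.24 and 13.5, with a log2 fold change of 0.09 ± 0.18 (SE, adjusted p = 0.864). Its alpha chain partner H2-DMa was at 14.7, 10.2, 11.2 and 16.9 against 8.85, 8.07, 9.59 and 19.1 (0.17 ± 0.21, SE). The 2 beta chains could share reads, so their split is uncertain. The genes that fell were the lysosomal proteases Lgmn, Ctss and Ctsl, and Lgmn was at 1.97, 1.67, 1.44 and 1.57 against 33, 6.33, 20.6 and 14.4 (log2 fold change -3.39). Ciita, the regulator of class II genes, had a log2 fold change of 0.91 ± 0.33 (SE) and did not pass the test (adjusted p = 0.157).

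On the class I side 4 of 15 genes were higher (median 0.28). They were the immunoproteasome subunits Psmb8 (log2 fold change 0.93 ± 0.20, SE) and Psmb9 (0.99 ± 0.19, SE), the proteasome activator Psme1 (0.88 ± 0.21, SE) and Wdfy4. Psmb8 stood at 18.9, 8.09, 9.57 and 12.4 per 10000 against 9.5, 5.47, 3.58 and 5.35, and the kinds overlapped across tumors but not within any tumor. Of 28 actin and movement genes 3 rose, and Tmsb10, an actin monomer binding protein, was at 72.7, 23.9, 38.2 and 36.3 against 11.3, 9.47, 9.46 and 5.2 (2.10 ± 0.25, SE). The other 2 were Lsp1 and S100a11.

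**Figure D3:**
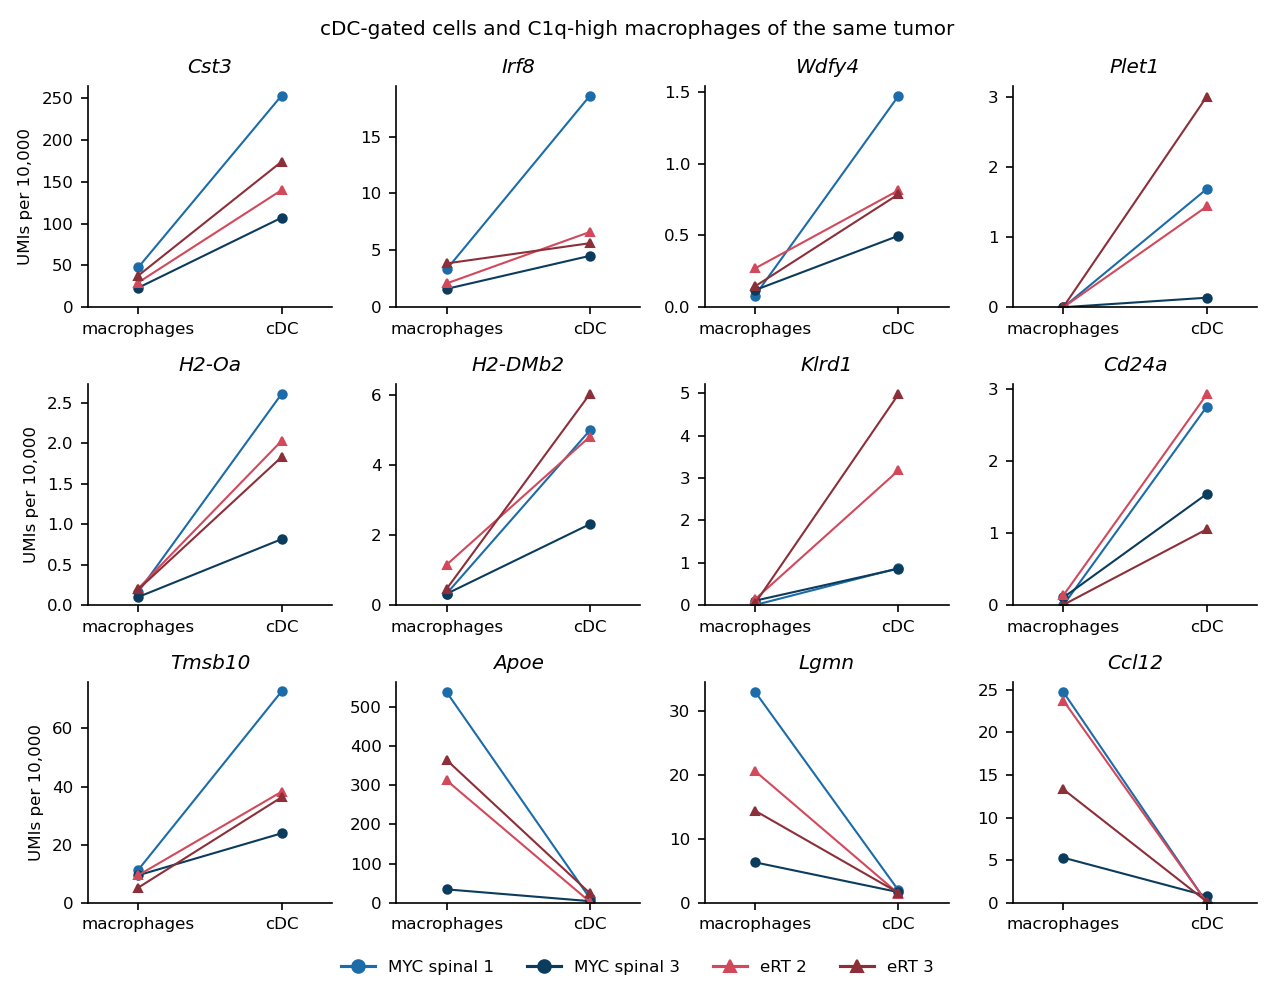
UMIs per 10000 (linear y axes from 0) of 12 genes in the cDC-gated cells and C1q-high macrophages of 4 tumors, with a line joining the kinds of 1 tumor. Cst3, H2-Oa, H2-DMb2 and Tmsb10 are higher in cDC-gated cells in 4 of 4 tumors, and Apoe, Lgmn and Ccl12 are lower.

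Of the other lists, edgeR called 0 of 18 cell cycle genes (1 at an unadjusted p under 0.05, 0 by DESeq2) and 0 of 10 SWI/SNF genes (0 and 0). It called 0 of 11 co-stimulation and checkpoint genes (4 unadjusted, 0 by DESeq2) and 0 of 19 immediate early and heat shock genes (8 unadjusted, 2 by DESeq2). Their median log2 fold changes were 0.23, -0.03, 0.12 and -0.46. Of 20 interferon response genes, Oas1a fell (log2 fold change -1.34), but the summed list differed between tumors. It was 71.1, 27.6, 58.9 and 53.4 UMIs per 10000 in the members of spinal 1, spinal 3, eRT 2 and eRT 3. The macrophages of the same tumors had 119, 27.3, 35.3 and 18.8. Of 12 monocyte genes Ifitm6 and Plac8 rose while Cd14 and Fn1 fell. Of 9 maturation genes outside the rule Ccl17, an attractant of T cells, rose. Of the lists of other cell types, Cd3d of T cells rose (1 of 4 tested, and 4 by DESeq2), Lair1 of the plasmacytoid list fell (1 of 4), and Camp and Ngp of the neutrophil list were higher (2 of 7). Camp had 4.11 and Ngp 5.65 UMIs per 10000 in the members of spinal 3 and none in those of the other 3 tumors tested, so these calls rested on spinal 3, and DESeq2 called 0 of the 7.

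The Ccr7 dendritic cells, 58 cells that passed the same class II, C1q and Cd79a limits but held at least 2 of Ccr7, Fscn1 and Ccl22, gave the second comparison. They numbered 1 in spinal 1, 3 in spinal 2, 14 in spinal 3, 1 in eRT 1, 37 in eRT 2 and 2 in eRT 3, so spinal 3 and eRT 2 could be paired. In the same edgeR fit, 29 of 2235 genes were higher in cDC-gated cells (1.30%) and 120 were lower (5.37%), 6.67% in all. DESeq2 called 50, of which 7 were higher and 43 lower. Without pairing 16 were called, all of them lower. The calls rest on 2 tumors, from which no tumor could be left out.

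The cDC-gated cells held less RNA of maturation genes. Of the maturation list 17 of 18 tested genes were lower, with a median log2 fold change of -3.56 against 0.06 over all genes, and these genes go with the 3 genes that define the gate. Ccl5, a chemokine that draws T cells, was at 2.44 and 3.07 UMIs per 10000 in the cDC-gated cells of spinal 3 and eRT 2 and at 37.8 and 31.5 in the Ccr7 cells (log2 fold change -3.75 ± 0.21, SE). Relb, an NF-kB subunit of maturing dendritic cells, was at 0.452 and 0.702 against 4.48 and 4.72 (-3.07 ± 0.39, SE). Il12b, the p40 chain of the T cell polarizing cytokine interleukin 12, had 2 UMIs in the cDC-gated cells and was at 8.96 and 0.85 per 10000 in the Ccr7 cells, a ratio of sums of 66.4 (17.1 to 568.4). Il4i1, an amino acid oxidase gene, was at 0.0452 and 0.961 against 6.72 and 9.64 (-4.24 ± 0.56, SE).

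Of 13 co-stimulation and checkpoint genes, 5 were lower (Cd274, Cd40, Cd83, Pdcd1lg2 and Pvr). Cd274 (PD-L1) was at 0.136 and 0.517 per 10000 against 1.28 and 2.46, and Cd40 at 0.181 and 0.296 against 2.24 and 1.42. Cd86, a ligand of CD28, was at 1.31 and 1.77 against 3.52 and 3.78 and did not pass (log2 fold change -1.34, adjusted p = 0.0525). Of 14 class I genes, B2m, H2-D1, Psme2 and Tapbpl were lower, and Psme2 was at 3.89 and 4.1 against 13.1 and 12.4 (-1.79 ± 0.26, SE). Of 27 actin and movement genes, 7 were lower and Anxa1 was higher, and Tmsb4x was at 221 and 245 against 372 and 397 (-0.84 ± 0.07, SE).

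The named genes that fell most were Cacnb3, Il12b, Nudt17, Eno3, Serpinb6b, Adam23, Serpinb9 and Socs2. Cacnb3, a calcium channel beta subunit gene, had 1 UMI in cDC-gated cells against 3.84 and 1.89 per 10000 (ratio of sums 114.8, counting interval 19.2 to 4674). Nudt17 had 1 UMI against 2.24 and 1.32 per 10000 (ratio 75.3, 12.1 to 3115), and Adam23 had 2 UMIs (ratio 23.3, 5.28 to 213). Serpinb9, which inhibits granzyme B, was at 0 and 0.185 against 3.52 and 1.7, and Socs2, a cytokine signal suppressor gene, at 0.0452 and 0.148 against 1.92 and 2.27. Eno3 and Serpinb6b were at 0.136 and 0.037, and at 0.226 and 0.111, against 1.6 and 2.27, and 6.08 and 2.27.

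The named genes that were higher in cDC-gated cells were Clec10a, Rnase6, AB124611, Man2b1, Dmkn, Ms4a6b, Celf2 and Stmn1. None of them was called without pairing. Clec10a was at 0.633 and 2.37 per 10000 with no UMI in the Ccr7 cells, at least 6.85-fold higher. Stmn1, which encodes the microtubule regulator stathmin, was at 3.34 and 1.48 against 0.96 and 0 (ratio of sums 10.6, 3.53 to 52.1). Man2b1, a lysosomal mannosidase gene, was at 1.04 and 1.18 against 0 and 0.0945 (15.3, 2.64 to 616), and Rnase6 at 0.814 and 1.66 against 0 and 0.0945 (17.6, 3.04 to 705). The other ratios of sums were 14.5 (2.49 to 583) for AB124611, 18.4 (3.19 to 738) for Dmkn, 9.01 (2.99 to 44.5) for Ms4a6b and 8.27 (2.74 to 40.9) for Celf2, each from 1 to 3 UMIs in the Ccr7 cells.

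Lyz2 was at 61.1 and 17.1 UMIs per 10000 against 11.8 and 2.27 (log2 fold change 2.5 ± 0.20, SE). H2-DMb1 was at 7.55 and 8.87 against 0.96 and 2.93 (1.83 ± 0.39, SE), while H2-DMb2 was at 2.31 and 4.81 against 7.36 and 4.25 and did not pass (-0.75 ± 0.43, SE). Cst3 was at 107 and 140 against 170 and 166 (-0.57 ± 0.10, SE, adjusted p = 0.00731). The values of Lyz2 and Cst3 depended on who was admitted. For Lyz2 the log2 fold change was 0.98 with at least 2 marker UMIs per member and 1.05 without Naaa in the rule, where it was no longer called (adjusted p = 0.138), and it was not called without pairing (2.45, adjusted p = 0.271). For Cst3 it was 0.41 and 0.09 under the first 2 of these settings.

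**Figure D4:**
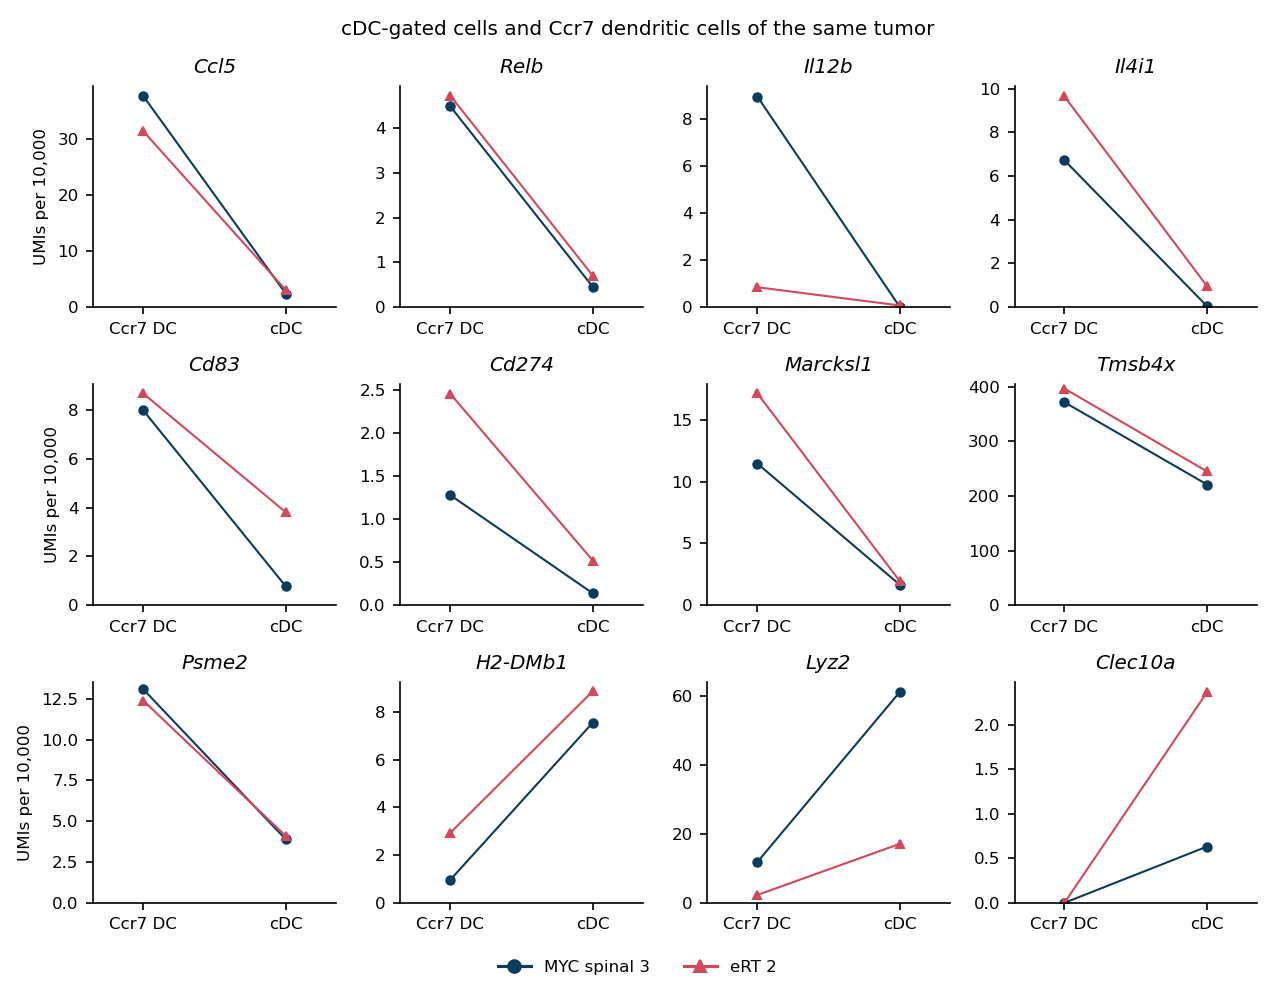
UMIs per 10000 (linear y axes from 0) of 12 genes in the cDC-gated cells and Ccr7 dendritic cells of spinal 3 and eRT 2, with a line joining the kinds of 1 tumor. Ccl5, Relb, Il12b and Cd274 are lower in cDC-gated cells in both tumors, and H2-DMb1, Lyz2 and Clec10a are higher.

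The subtypes were compared within the cDC-gated cells, eRT 2 and eRT 3 for eRT and spinal 1, spinal 2 and spinal 3 for MYC spinal, since eRT 1 had 5 such cells. Both eRT tested were from Sox2-cre mice and all spinal tumors from Rosa26-cre mice, so subtype and Cre line cannot be told apart here. The edgeR quasi-likelihood fit, adjusted in the same way, gave no call: 0 of 3013 genes passed (0.00%), with 82 at an unadjusted p under 0.05 and a smallest adjusted p of 0.233. DESeq2 called 1 gene, and edgeR called 17 without eRT 3. The groups did not overlap with eRT above in 7.50% of the genes and with eRT below in 6.74%, which is the background for the genes below. The genes of the rule were not left out of this fit or this background, unlike in the other comparisons.

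Ifitm1 (chr7:140967221-140969825, plus strand) had the smallest p. It was at 3.8, 1.32 and 6.64 UMIs per 10000 in spinal 1, spinal 2 and spinal 3 and at 40.6 and 59.1 in eRT 2 and eRT 3, with a log2 fold change of 3.59 ± 0.58 (SE, adjusted p = 0.233). Ifitm2, of the same family, was at 6.36, 8.71 and 14.8 against 29.2 and 47.6. Klrd1 was at 0.87, 0.264 and 0.859 against 3.18 and 4.98, and the activation marker Cd83 at 1.69, 1.06 and 0.768 against 3.81 and 2.62. For these 4 genes the eRT values lay above every spinal value without passing the adjusted test.

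Of the cDC2 genes, Mgl2, a lectin gene, was at 3.34, 0.528 and 0.949 per 10000 in the spinal tumors against 3.51 and 5.89 in eRT. Tnip3 was at 0.916, 0.528 and 0.316 against 3.14 and 0.917. Of the cDC1 genes, Cadm1 was at 0.687, 0.264 and 0.768 against 0.037 and 0.131, and Cd36, a scavenger receptor gene, at 0.778, 0.528 and 0.271 against 0 and 0. Batf3 overlapped, at 2.06, 2.64 and 0.723 against 0.887 and 0.655. Over the whole cDC1 list the groups overlapped, with sums of 57.5, 29 and 16.1 per 10000 in the spinal tumors against 26.3 and 16.4 in eRT 2 and eRT 3, and 44.2 in eRT 1. The median log2 fold change, eRT over spinal, was -0.99 over 15 tested cDC1 genes, 0.46 over 19 cDC2 genes and -5.62 over 8 neutrophil genes, against 0.00 over all genes, and edgeR and DESeq2 called 0 genes of these 3 lists (4, 4 and 5 at an unadjusted p under 0.05 by edgeR). The members with Xcr1 or Clec9a numbered 19 of 33, 4 of 32 and 8 of 89 in the spinal tumors against 8 of 74 and 3 of 38 in eRT, and the part of this mixture in the values was not tested. The neutrophil list summed to 0.137, 187 and 36.1 per 10000 in the spinal tumors against 9.2 and 0 in eRT 2 and eRT 3, and S100a8 was at 0, 86 and 11.4 against 3.66 and 0, so the groups overlapped and spinal 2 stood highest. Its part in the other values was not tested.

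**Figure D5:**
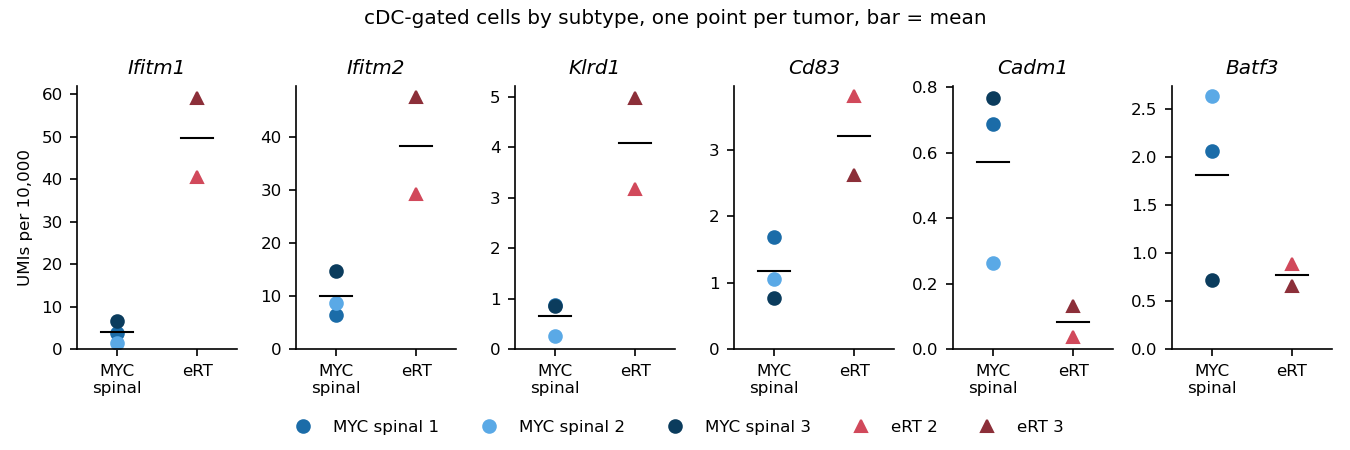
UMIs per 10000 (linear y axes from 0) of 6 genes in the cDC-gated cells of 3 MYC spinal tumors and 2 eRT, with 1 point for each tumor and a bar at the mean. Ifitm1, Ifitm2, Klrd1 and Cd83 do not overlap with eRT above, Cadm1 does not overlap with eRT below, and Batf3 overlaps.

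Whether the difference between cDC-gated cells and macrophages depended on the subtype was tested as an interaction over spinal 1, spinal 3, eRT 2 and eRT 3. By edgeR, 0 of 3480 genes were called (0.00%), with 125 at an unadjusted p under 0.05 and a smallest adjusted p of 0.101 for AA467197. DESeq2 called 1 gene. AA467197 was at 4.12, 0.0904, 2.62 and 0.524 UMIs per 10000 in cDC-gated cells and at 4.79, 0.0645, 0 and 0 in macrophages of spinal 1, spinal 3, eRT 2 and eRT 3. Without spinal 1 the count was 37. Of 20 interferon response genes, edgeR and DESeq2 called 0, and 10 had an unadjusted edgeR p under 0.05, the most of any list. Their median interaction log2 fold change was 1.58, against -0.02 over all genes.

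Cycling was read from the share of cells with a UMI of Mki67, Top2a, Birc5, Cdk1 or Ube2c, genes of late cell cycle, after thinning every cell to 1000 UMIs. Among cDC-gated cells the share was 3.03% in spinal 1, 12.4% in spinal 3, 5.56% in eRT 2 and 5.26% in eRT 3. Among macrophages it was 11.1%, 19.7%, 4.69% and 9.92% in the same tumors. The members were lower in 3 of 4 tumors, on average by 4.80 percentage points (difference -4.80, SD 4.05, n = 4 pairs), with an exact two-sided sign-flip permutation p of 0.25 and a smallest possible p of 0.125. Without thinning the shares were 18.2%, 24.7%, 8.11% and 10.5% against 22.2%, 30.2%, 8.57% and 16.3%. In spinal 2 and eRT 1, which had fewer than 10 cells of 1 kind, they were 5.88% and 0% in members against 25% (1 of 4 cells) and 14.8% in macrophages after thinning, and thinning left out 15 members of spinal 2 and 2 of eRT 2. By admitting marker, 6 of 41 Xcr1 or Clec9a cells (14.6%), 2 of 75 Flt3 or Cd209a cells (2.67%) and 11 of 138 cells with Naaa alone (7.97%) had such a UMI, from 1 to 3 cells in each tumor that held any except for 8 of Naaa alone in spinal 3. The difference between cDC-gated cells and macrophages was -1.28 points with C1q under 5 per 10000, -0.823 without Naaa in the rule and 1.44 with at least 2 marker UMIs per member.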

How the data were processed

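Single cells of 6 tumors were sequenced with the 10x Genomics 3′ kit. The authors aligned the reads with Cell Ranger 2.0.2 to mm10, per the labels, and deposited raw UMI counts, one table of genes by cells per tumor, that lists genes found in at least 3 cells. Samples took their groups from the labels. Per-sample columns left unused numbered 0.

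Kept cells had 200 genes or more and a mitochondrial share of 25% or less. The members and the gene lists were chosen with earlier results of these data known. UMIs were summed per tumor and kind of cell, where a tumor had at least 10 such cells, and described as UMIs per 10000. Tests used edgeR 4.0.16 in R 4.3.3 (TMM, filterByExpr, quasi-likelihood, Benjamini-Hochberg at 0.05), with the tumor as a block within tumors, since both kinds come from the same mouse. The standard error is the log2 fold change over the square root of F. The edgeR fits were tried on simulated counts of 1 fixed dispersion, and the other steps were not. DESeq2 1.42.0 was an alternative. The study's test over single cells was not used, since cells are not replicates. The tumors come from different mice, per the labels. Shares were tested over tumors with exact permutations (scipy 1.17.1), and intervals are exact at 95% and cover counting error only. Named genes were the 8 called genes in each direction with the largest log2 fold change, moving one way in every pair, at 0.5 or more UMIs per 10000 in the higher kind. Genes outside this rule were named after their values had been seen. Scrublet (scanpy 1.11.5) marked 34 of 22163 cells (0.153%) as doublets, which is too low for the caller to have worked, so all cells stayed. Removing the 843 highest scores (7 members) was an alternative. The comparison of Xcr1 or Clec9a with Cd209a cells was not made, since no tumor had 10 of each. Cells with few UMIs can miss a marker, so depth limits who is admitted.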

Additional observations from a re-analysis of the deposited data

How the results depend on the processing

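The number of genes called depended on the settings. For cDC-gated cells against C1q-high macrophages (221 genes) it was 406 with every gene tested, 71 with no replicate block, 342 with at least 2 marker UMIs and 353 with at least 5 cells per tumor, and it ran from 30 to 279 leaving out 1 tumor, lowest without eRT 2 and 93 without spinal 1. DESeq2 called 192 of the same 221 genes. For the Ccr7 dendritic cells (149 genes) it was 50 with DESeq2, 82 without TMM, 16 with no replicate block, 236 with cells of 500 genes or more and 10% mitochondrial UMIs or less, 67 without the highest Scrublet scores and 69 without Naaa in the rule.

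For the subtypes (0 genes) it was 1 with DESeq2 and 14 with every gene tested, and 0 to 17 leaving out 1 tumor, with 17 without eRT 3 and 1 without eRT 2, where the lone eRT is assumed to vary like the other tumors. For the interaction (0 genes) DESeq2, no TMM, C1q under 5 and no Naaa gave 1 each, every gene 11, at least 5 cells 8, and leaving out 1 tumor 0 to 37, with 37 without spinal 1, 8 without spinal 3 and 3 without eRT 3. The settings without Naaa and with at least 5 cells were chosen after seeing the data.

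The share difference turned to -9.03 points among class II high cells and ran from -0.785 to 0.91 leaving out 1 tumor, and was -0.183 without spinal 2. The cycling difference turned to 1.44 points with at least 2 marker UMIs, was -1.28 with C1q under 5 and -0.823 without Naaa, and ran from -6.68 to -3.70 leaving out 1 tumor. Of the named genes, 1186 alternative values kept direction and side of the threshold, 266 no longer passed, 19 newly passed and 3 turned. These 3 were Cst3 against Ccr7 cells (0.41 with at least 2 marker UMIs, 0.09 without Naaa) and H2-DMb1 against macrophages (-0.01 without spinal 1, and -0.01 to 0.15 leaving out 1 tumor). The cause of these changes was not tested.

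No paired analysis was possible because the tumors of the 2 subtypes come from different mice and their numbers follow the order of the samples. A fit on Rosa26-cre tumors alone was not run, since it leaves eRT 1 with 5 cells for eRT, and no tumor was left out of the Ccr7 comparison, where 1 pair leaves no residual spread.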

Other observations

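Genes of the plasmacytoid dendritic cell list summed to between 2.71 and 13.5 UMIs per 10000 in the cDC-gated cells of the 6 tumors. The maturation list without the genes of the rule summed to 14.8, 20.1 and 9.09 per 10000 in spinal 1, spinal 2 and spinal 3 and to 6.21, 20.7 and 16.5 in the eRT eRT 1, eRT 2 and eRT 3, so the groups overlapped, against 99.7 to 315 in the 1 to 37 Ccr7 dendritic cells of each tumor.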
